A study of Mus musculus with 12 samples.

Results

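Cholesterol and fatty acids are both built from acetyl-CoA, and the enzymes of both pathways were followed here as a set of 30 listed genes in mouse liver and brain after death. Of the 30 genes, 27 had a probe set on the array that is listed with that gene alone, out of 17097 genes so represented. Pmvk, Srebf1 and Scd2 had none and were not analysed here. Where a gene had several, the brightest of its probe sets by mean level across the 12 arrays stood for it. That choice of probe set used no difference between conditions. The list of genes itself was chosen with earlier results of these data known. The filter on low values left 26 members in the tests. Hmgcs1, which makes HMG-CoA for the mevalonate pathway, had log2 values of 3.33 to 4.40 on its only probe set and was left out of them by that filter.

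The arrays were Affymetrix MG-430 PM strips, and each of the 12 conditions had 1 array. All tissue came from male BALB/c mice aged 10 weeks, with no genetic change or drug named in the labels. Liver and brain were each kept in 2 ways, as formalin-fixed, paraffin-embedded blocks (FFPE) or fresh-frozen (FF). Each was taken at death (0 h), from bodies left for 3 h at room temperature, or from bodies kept for 18 h at 4 °C, which the submitters chose to resemble human autopsy. FFPE pieces spent 24 h in 10% formalin and 7 d as blocks before sections of 10 µm were cut, and their RNA was amplified with a whole-transcript kit. FF pieces went into RNAlater, and their RNA was amplified with a 3' in vitro transcription kit. FFPE and FF therefore differ in preservation, extraction and amplification together, which cannot be told apart, and time after death and storage temperature cannot be told apart either. The number of animals, and whether arrays share one, is not stated in the labels. With 1 array per condition there is no spread between replicates to measure. The p-values rest on how far the FFPE and FF changes with time disagree within a tissue, pooled over liver and brain. The fit also draws each gene's spread toward that of all genes tested, so its p-values rest in part on other genes.

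As background, cholesterol synthesis runs from HMG-CoA through mevalonate and isoprenoid units to squalene, which is cyclised to lanosterol and trimmed to cholesterol. Fatty acid synthesis starts with citrate cleavage by ATP citrate lyase, makes malonyl-CoA, and builds palmitate, which is then elongated and desaturated. Transcription of most of these genes is driven by the SREBP factors, which INSIG proteins hold in the endoplasmic reticulum when sterols are plentiful. Liver makes lipid for export and changes these genes with feeding, while brain makes its own cholesterol, largely for myelin.

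Promoters of 24 of the 30 genes were present in the RefSeq table of mouse promoters (build GRCm38.p6), which gives 250 bases before and 50 after each start. The motifs were searched as plain letters on both strands. The CCAAT box, to which the NF-Y factor binds beside SREBPs, was found in 21 of 24 genes (87.5%), against 41.1% of all 27025 genes in the table. The E-box CACGTG was found in 4 genes (16.7%), Dhcr7, Elovl5, Insig1 and Sc5d, against 8.09% of all genes. The sterol regulatory element TCACNCCAC was found in 1 gene (4.2%), Hmgcs1, against 1.44% of all genes. None of these motifs contains another. The 5 stretches printed here are the 200 bases before the start, in the direction of transcription, for a pair of genes that were higher in liver after 18 h (Fasn and Insig1), a pair that were lower (Cyp51 and Sc5d), and the one holding the sterol element. Capitals mark the motif letters, with CCAAT shown as ATTGG where it lies on the other strand.
Fasn promoter, chr11:120824548-120824747, minus strand: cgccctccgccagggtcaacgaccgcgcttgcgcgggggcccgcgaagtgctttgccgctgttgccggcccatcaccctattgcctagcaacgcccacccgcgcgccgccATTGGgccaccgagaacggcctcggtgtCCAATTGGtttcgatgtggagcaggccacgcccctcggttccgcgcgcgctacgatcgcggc
Insig1 promoter, chr5:28071212-28071411, plus strand: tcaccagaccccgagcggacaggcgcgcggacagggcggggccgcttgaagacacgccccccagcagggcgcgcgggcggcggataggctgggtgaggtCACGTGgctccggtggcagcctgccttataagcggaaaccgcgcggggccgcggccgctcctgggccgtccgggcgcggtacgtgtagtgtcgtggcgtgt
Cyp51 promoter, chr5:4104698-4104897, minus strand: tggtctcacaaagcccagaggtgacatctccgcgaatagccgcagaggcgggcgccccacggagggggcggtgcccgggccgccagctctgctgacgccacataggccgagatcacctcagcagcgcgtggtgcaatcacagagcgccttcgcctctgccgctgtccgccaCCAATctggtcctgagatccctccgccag
Sc5d promoter, chr9:42264301-42264500, minus strand: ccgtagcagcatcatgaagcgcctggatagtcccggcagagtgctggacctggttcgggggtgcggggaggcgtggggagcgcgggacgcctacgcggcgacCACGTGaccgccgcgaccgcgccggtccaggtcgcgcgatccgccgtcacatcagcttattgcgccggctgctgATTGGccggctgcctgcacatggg
Hmgcs1 promoter, chr13:119690151-119690350, plus strand: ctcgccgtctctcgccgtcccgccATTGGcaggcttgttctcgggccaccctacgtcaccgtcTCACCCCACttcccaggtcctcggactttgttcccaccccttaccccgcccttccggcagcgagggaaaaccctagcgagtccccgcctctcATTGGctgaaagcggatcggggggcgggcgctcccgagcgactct
The capitals in the Fasn stretch start 90, 62 and 59 bases before the start and are CCAAT boxes, a pair of which overlap. In Insig1 the capitals are the E-box, 101 bases before the start, and its CCAAT box lies at 216, beyond the printed bases. Sc5d carries an E-box at 98 and a CCAAT box at 24, and Cyp51 a CCAAT box at 29. In Hmgcs1 the sterol element lies at 137, between CCAAT boxes at 176 and 45. An E-box and a CCAAT box occurred both in the pair that was higher and in the pair that was lower. With so few genes, and a CCAAT box in 21 of 24, no link of motif to direction could be read either way.

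The arrays matched their tissue labels. The summed level of 17 hepatocyte markers, as log2 of the sum, was 16.15 to 16.35 on the liver arrays and 9.87 to 12.94 on the brain arrays, while that of 10 neuron markers was 8.18 to 8.57 in liver and 13.45 to 14.21 in brain. Arrays of 1 tissue and preservation had Pearson correlations of 0.973 to 0.995 over probe sets, which share an array and are no replicates. Between FFPE and FF at a matched time the correlation was 0.842 to 0.883 in liver and 0.770 to 0.780 in brain. Array medians were 4.80 to 4.89 in FFPE and 4.65 to 4.68 in FF.

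The first comparison asked where these genes are more highly expressed. Liver exceeded brain in both preservations for all 5 desaturases and elongases tested, by 1.04 to 2.88 log2 units. The desaturase gene Scd2 had no single-gene probe set and is not among them. Liver was also higher for 5 of 6 (FF) or all 6 (FFPE) genes of palmitate synthesis and NADPH supply. The sterol branch was split, with Sc5d, Dhcr7 and both Insig genes higher in liver and Sqle lower. Differences were estimated with limma across all 13073 genes tested, averaged over the 3 times, with Benjamini-Hochberg adjustment and a threshold of 0.05. In FFPE tissue 17 of 26 members were higher and 3 lower in liver, where 63.5% of all genes tested passed, 34.5% as higher and 29% as lower. In FF tissue 15 were higher and 8 lower, where 74.1% of all genes passed, 36.5% as higher and 37.5% as lower. Quantile normalisation of all arrays made it 17 higher and 4 lower in FF, and equal array medians 19 higher and 1 lower in FFPE. The members' median difference was 1.12 in FFPE and 0.42 in FF, and that of all genes 0.04 in each. In both preservations 15 members were higher and 3 lower in liver, and 0 were called in opposite directions. The share of all genes called alike in both preservations was not counted, so these overlaps have no background beside them. In bulk tissue, fewer cells of a type and less RNA per cell cannot be told apart.

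The largest tissue difference among members was that of Thrsp, a nuclear regulator of lipogenesis also known as Spot 14. Its log2 values in FFPE tissue at 0, 3 and 18 h were 11.29, 11.43 and 11.14 in liver, against 6.71, 6.56 and 6.56 in brain. In FF tissue they were 11.43, 11.58 and 11.45 in liver, against 7.62, 7.60 and 7.66 in brain. Every liver value lay above every brain value, and the difference was 4.68 ± 0.11 in FFPE (SE, limma adjusted p = 5.1e-13) and 3.86 ± 0.11 in FF (adjusted p = 2.1e-12). Me1, malic enzyme, which supplies NADPH for fatty acid synthesis, was 2.17 higher in FFPE and 1.47 higher in FF liver. Acacb, the acetyl-CoA carboxylase that regulates fatty acid oxidation at mitochondria, was 0.63 higher in FFPE and 1.57 higher in FF liver. Its FF brain values, 4.24, 4.48 and 4.59, lay below the array medians, so the FF difference may be only a bound. The other probe set of Acacb, below the array medians throughout, read 3.78, 3.82 and 3.84 in FF liver, against 3.77, 3.54 and 3.55 in FF brain.

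Fasn, Acly and Acaca stood farther above brain in FFPE than in FF. Fasn, fatty acid synthase, had log2 values of 7.66, 8.28 and 8.53 in FFPE liver at 0, 3 and 18 h, against 6.70, 6.82 and 6.95 in FFPE brain. In FF tissue Fasn had 8.50, 9.03 and 9.50 in liver, against 8.74, 8.51 and 8.77 in brain, so that the groups overlapped and liver was the lower tissue at 0 h. The liver minus brain difference of Fasn was 1.33 in FFPE (adjusted p = 3.0e-07) and 0.34 in FF (adjusted p = 0.0196). The FF call was lost with FF arrays alone and without the FF brain array at 3 h (0.26) or 18 h (0.32) or the FF liver array at 0 h (0.34) or 18 h (0.28). Acly, ATP citrate lyase, was 1.38 higher in FFPE liver and 0.33 higher in FF liver. Its FF call was lost with the mean of probe sets (0.17), without any 1 FF brain array (0.30 to 0.35), and without the FF liver array at 3 h (0.32) or 18 h (0.25). Acaca, the acetyl-CoA carboxylase that makes malonyl-CoA for synthesis, was 1.10 higher in FFPE liver, and its FF difference of 0.22 was not past the threshold (adjusted p = 0.107).

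The desaturases and elongases tested, which leave out Scd2, were higher in liver throughout. Fads2, the delta-6 desaturase of polyunsaturated fatty acids, was 2.88 higher in FFPE and 1.59 higher in FF liver. Fads1, the delta-5 desaturase, was 1.12 higher in FFPE and 1.14 in FF. Elovl5, which elongates polyunsaturated chains, was 2.27 higher in FFPE and 1.62 in FF, and Elovl6, which elongates palmitate, was 1.37 higher in FFPE and 1.13 in FF. Scd1, stearoyl-CoA desaturase, was 1.13 higher in FFPE and 1.04 in FF, but by as little as 0.26 and 0.34 at 3 h, when its liver value was low.

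The sterol branch held the member farthest below brain and one of those farthest above it. Sqle, squalene epoxidase, had log2 values in FFPE tissue of 3.71, 3.95 and 3.65 in liver, against 4.91, 4.81 and 4.82 in brain. In FF tissue it had 4.64, 5.20 and 5.15 in liver, against 7.25, 7.21 and 7.29 in brain. Every liver value of Sqle lay below its brain counterpart, with a difference of -1.08 in FFPE (adjusted p = 5.6e-06) and -2.25 in FF (adjusted p = 2.0e-09). Its FFPE liver values lay below the array medians and within the range of Hmgcs1. The FFPE brain values of Sqle at 3 h and 18 h, and its FF liver value at 0 h, lay just below the array medians too. No detection call was used, so the FFPE difference, and in part the FF one, may be only a bound. Sc5d, which introduces the delta-5 double bond late in the pathway, was 3.04 higher in FFPE liver and 2.68 higher in FF liver, and Dhcr7, the last reductase, was 1.36 and 1.10 higher.

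For the steps between mevalonate and the sterol ring the tissue difference was not alike in the 2 preservations. Lss, lanosterol synthase, differed by -0.11 in FFPE (adjusted p = 0.434) and by -1.45 in FF (adjusted p = 1.3e-07). In FFPE it averaged 4.38 in liver and 4.49 in brain, below the array medians, so little of a tissue difference could be read there. Mvd, which makes isopentenyl diphosphate, differed by -0.19 in FFPE and -1.07 in FF, Fdps, farnesyl diphosphate synthase, by 0.30 and -0.82, Fdft1, squalene synthase, by 0.30 and -0.39, and Cyp51, lanosterol demethylase, by 0.08 and -0.59. None of these 4 passed in FFPE, and all 4 passed in FF. For Lss and these 4 the difference between preservations was itself past the threshold, but quantile normalisation took it from Mvd (0.61), Fdft1 (0.30) and Cyp51 (0.18). The mean of probe sets turned that of Cyp51 to -0.03, and it was also lost without any 1 brain array at 3 h (0.58) or at 18 h (0.59). Mvd read 4.23, 5.04 and 4.42 in FF liver at 0, 3 and 18 h, below the array medians at 0 h and 18 h. Its FF difference may therefore be only a bound, and these values also enter its difference between preservations. The other probe set of Mvd read 4.78, 4.75 and 4.46 in FF liver, against 4.89, 5.10 and 4.90 in FF brain. Idi1, isopentenyl diphosphate isomerase, differed by 1.47 in FFPE and passed, and by 0.17 in FF and did not. Mvk, mevalonate kinase, was 0.31 higher in FFPE and 0.50 higher in FF, and Nsdhl, a demethylating dehydrogenase of the sterol ring, passed in neither (0.26 and -0.01).

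The regulators were split in the same way in both preservations. Insig1 was 2.44 higher in FFPE liver and 1.85 in FF liver, and Insig2 was 2.14 higher in FFPE and 1.55 in FF. Srebf2, the SREBP of the sterol branch, was lower in liver, with differences of -0.32 in FFPE and -0.52 in FF. Pnpla3, a lipid droplet hydrolase induced with lipogenesis, was lower too, by a difference of -0.31 in FFPE (limma adjusted p = 0.0486) and of -0.30 in FF (adjusted p = 0.0482). Its log2 values were 4.79 to 5.17 in liver and 5.07 to 5.43 in brain, near the array medians of 4.65 to 4.89. No detection call was used, so little can be read from this gap. With quantile normalisation the calls of Srebf2, Fdft1 and Cyp51 in FF, of Mvk in FFPE and of Pnpla3 in both were lost, and with equal array medians the Srebf2 call in FFPE and both Pnpla3 calls were lost. Without single arrays the calls of Fdft1 in FF, of Mvk and Srebf2 in FFPE and of Pnpla3 in both were lost too, with Fdft1 at -0.23 and Pnpla3 at -0.14 without the FF liver array at 0 h, and Srebf2 at -0.22 without the FFPE brain array at 0 h. Cyp51 in FF also lost its call with the mean of probe sets (-0.16) and with FF arrays alone.

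**Figure D1:**
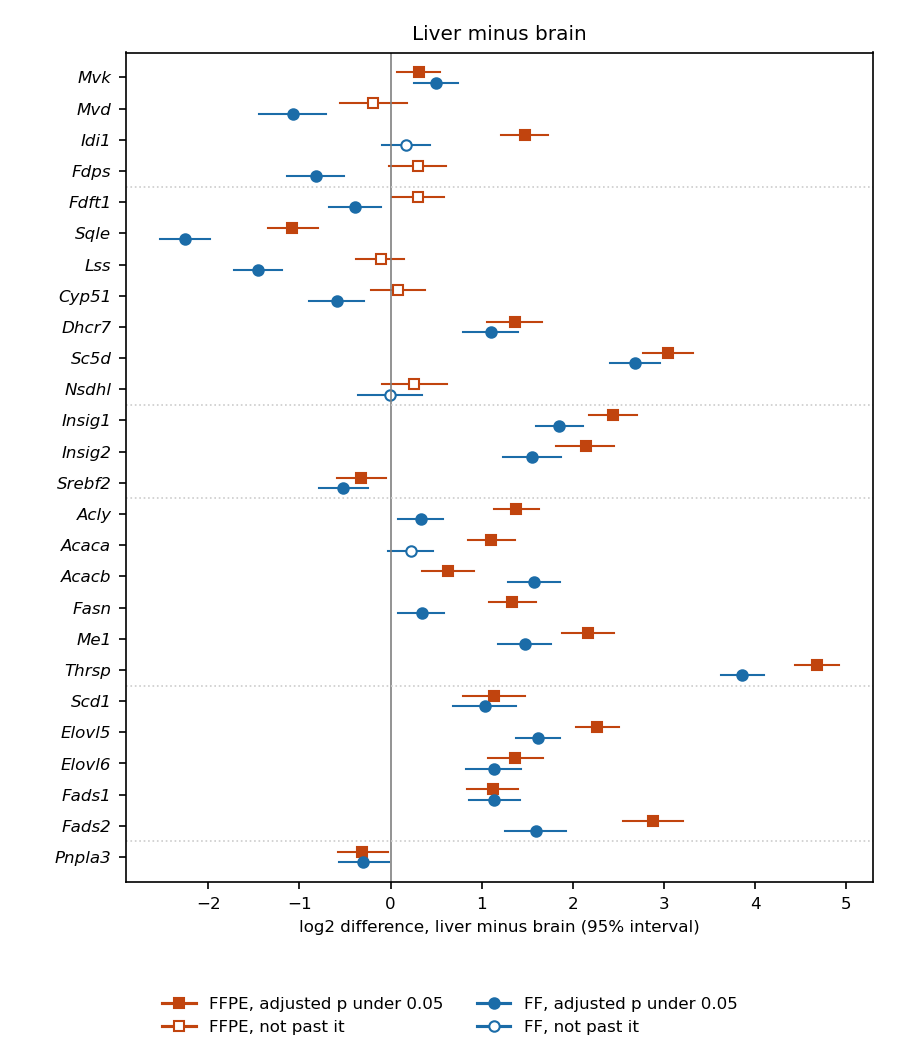
Liver minus brain difference on the log2 scale (x axis) for 26 genes (rows, grouped by pathway step between dotted lines), in FFPE tissue (orange squares) and FF tissue (blue circles), with 95% intervals from limma, filled where the adjusted p was under 0.05. Thrsp lies farthest to the right at 4.68 and 3.86, and Sqle farthest to the left at -1.08 and -2.25.

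Probe sets of one gene agreed on the tissue difference. Of 16 members with at least 2 probe sets in the tests, all probe sets pointed the same way for 14 in FFPE and 15 in FF. The exceptions were Mvd and Cyp51 in FFPE and Idi1 in FF.

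The second comparison set FFPE against FF tissue. Fewer members were higher than lower in FFPE, as among all genes, and the direction of single members often differed between their probe sets. In liver 4 of 26 members were higher and 10 lower in FFPE, where 71.2% of all genes tested passed, 27.8% as higher and 43.5% as lower. In brain 4 were higher and 18 lower, where 81.8% passed, 28.4% as higher and 53.4% as lower. The members' median difference was -0.21 in liver and -0.88 in brain, against -0.17 and -0.42 for all genes. Quantile normalisation moved the members' median to -0.08 in liver and 0.02 in brain, that of all genes to -0.09 and -0.11, and the split of members to 7 higher and 7 lower in liver and 7 higher and 11 lower in brain. Equal array medians gave a members' median of -0.37 in liver and -1.09 in brain, against -0.33 and -0.62 for all genes, with 3 higher and 14 lower in liver and 3 higher and 20 lower in brain.

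In both tissues 10 members were lower in FFPE, namely Fdps, Fdft1, Sqle, Lss, Nsdhl, Insig1, Acly, Acaca, Fasn and Elovl6. The share of all genes called alike in both tissues was not counted, and singly 43.5% were lower in liver and 53.4% in brain. However, Insig1 in brain stood at 0.04 under quantile normalisation, and Acly and Acaca in liver at 0.29 and 0.69 with the mean of a gene's probe sets. Quantile normalisation also took the liver calls of Fdft1 (-0.23), Insig1 (-0.09) and Acaca (-0.20), and the mean of probe sets the brain call of Acaca (-0.14). Insig1 in liver, at -0.29 (adjusted p = 0.0462), lost its call with liver arrays alone, without any 1 liver array (-0.33 to -0.21) and without any 1 brain array at 3 h or 18 h. Elovl6 had log2 values in liver of 6.63, 7.19 and 6.67 in FFPE, against 8.35, 8.98 and 8.92 in FF, a difference of -1.92 (adjusted p = 1.1e-07). In brain it had 5.66, 5.42 and 5.31 in FFPE, against 7.54, 7.76 and 7.55 in FF, a difference of -2.15 (adjusted p = 1.2e-08). On this main probe set of Elovl6 the FFPE and FF values did not overlap in either tissue. A second probe set was also lower in FFPE at each time in both tissues. The remaining one, below the array medians in brain, read 4.79, 4.64 and 4.81 in FFPE brain, against 4.16, 4.40 and 4.16 in FF brain. In liver it read 4.68, 4.85 and 5.48 in FFPE, against 4.85, 4.63 and 5.06 in FF. Mvk, Dhcr7 and Fads1 were higher in FFPE in both tissues, by 0.30, 0.59 and 0.64 in liver and by 0.49, 0.32 and 0.67 in brain. Equal array medians took the call from Mvk in liver (0.14) and Dhcr7 in brain (0.12). Dhcr7 in brain stood at 0.21 without either brain array at 18 h and at 0.30 without either at 0 h, and also lost the call without either liver array at 3 h. Mvk in liver lost it with liver arrays alone and without either liver array at 0 h (0.27) or at 3 h (0.33).

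Different probe sets of one gene often gave opposite answers. Of the 16 members with at least 2 tested probe sets, the probe sets disagreed in direction for 13 in liver and 10 in brain. The main probe set of Scd1 read 10.89, 9.24 and 10.18 in FFPE liver, against 10.54, 9.74 and 10.68 in FF liver, a difference of -0.22 (adjusted p = 0.236). Its other probe set read 10.11, 7.31 and 8.98 in FFPE liver, against 6.02, 4.37 and 5.20 in FF liver, a difference of 3.60 with no overlap of the groups. Acaca differed by -0.68 in liver on its main probe set and by 2.05 on its other one, and Acly by -1.27 and 1.85. Sc5d differed by 0.06 on its main probe set and by -2.72 and 1.31 on its others. The FFPE minus FF values given here are those of single probe sets.

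**Figure D2:**
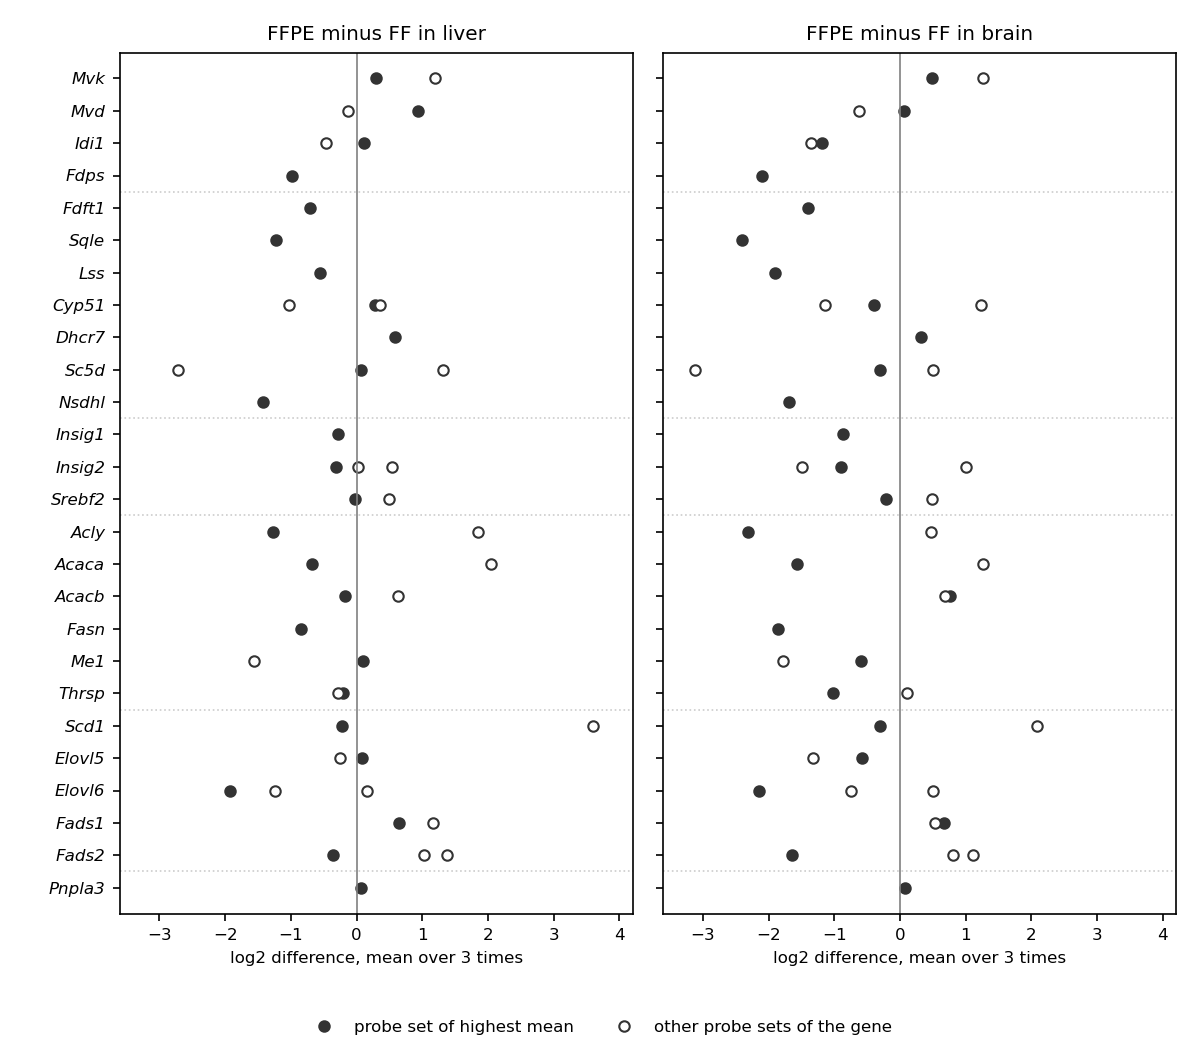
FFPE minus FF difference on the log2 scale (x axis, mean over the 3 times) for each probe set of 26 genes (rows), in liver (left) and brain (right), with filled circles for the probe set used and open circles for the gene's other probe sets. Open and filled circles of Acaca, Acly and Scd1 lie on opposite sides of 0 in both tissues.

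The preservation difference was itself unequal between tissues. Of 26 members, 16 passed with a larger and 1 (Acacb) with a smaller FFPE minus FF difference in liver than in brain, where 54.9% of all genes tested passed, 36.4% as larger and 18.5% as smaller. The FF brain values of Acacb, which enter its difference, lay below the array medians. The members' median was 0.66, and that of all genes 0.18. Under quantile normalisation 8 members were above 0 and 3 below among 11 called, the members' median was 0.16, the median of all genes was -0.00, and the share of all calls above 0 was 52.3%, against 66.4% as deposited. The differences of single genes were as large as 1.34 for Lss, whose FFPE values lay below the array medians in both tissues, and 1.30 for Idi1, which is the same contrast as the difference of their tissue gaps between preservations.

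The third comparison followed liver after death. At 18 h Fasn, Acaca and Insig1 rose, and Me1, Fdps, Insig2, Cyp51, Fdft1 and Sc5d fell. At 3 h a single member, Scd1, fell. The 3 h and 18 h comparisons share the same 0 h arrays, and each rests on 1 FFPE and 1 FF array per time.

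At 3 h 1 of 26 members passed, where 0.245% of all genes tested passed. Scd1 read 10.89, 9.24 and 10.18 at 0, 3 and 18 h in FFPE liver and 10.54, 9.74 and 10.68 in FF liver, so that both 3 h values lay below all others. It fell at 3 h by 1.23 ± 0.19 on the log2 scale (SE, 1 FFPE and 1 FF array at each time, limma adjusted p = 0.0238, fold 0.428). On its other probe set the 3 h difference was -2.80 in FFPE and -1.65 in FF. At 18 h Scd1 was higher than at 3 h, by 0.94 in each preservation (adjusted p = 0.0101). The 3 h call of Scd1 was lost in 11 of 18 alternatives, over which the difference ran from -1.73 to -0.80 and the adjusted p from 0.00496 to 0.316. Without the FFPE liver array at 0 h the difference was -0.80 (adjusted p = 0.156), without that at 3 h -1.01 (adjusted p = 0.316), and without the FF liver array at 3 h -1.44 (adjusted p = 0.0958). Leaving out any 1 brain array left the difference as it was and gave adjusted p of 0.0626 to 0.0698.

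Several fatty acid genes stood above their 0 h values at 3 h without passing. Fasn differed by 0.57 (adjusted p = 0.164), Elovl6 by 0.59 (adjusted p = 0.234) and Acaca by 0.47 (adjusted p = 0.28), each positive in both preservations. Fdps differed by -0.74 (adjusted p = 0.147). The members' median was 0.02 and that of all genes -0.01.

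At 18 h 3 members were higher and 6 lower among 26, where 14.5% of all genes tested passed, 3.61% as higher and 10.9% as lower. The members' median was -0.06 and that of all genes -0.02. Fasn read 7.66, 8.28 and 8.53 in FFPE liver and 8.50, 9.03 and 9.50 in FF liver at 0, 3 and 18 h. The values stood in the order of the times in both preservations, and Fasn rose at 18 h by 0.94 ± 0.14 (SE, adjusted p = 0.00119, fold 1.91). Acaca read 6.52, 7.00 and 7.18 in FFPE liver and 7.13, 7.59 and 8.01 in FF liver, again in the order of the times, and rose by 0.77 ± 0.14 (adjusted p = 0.00382, fold 1.71). On its other probe set the 18 h difference of Acaca was 0.22 (adjusted p = 0.436).

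Me1 moved the other way. It read 9.32, 8.90 and 8.51 in FFPE liver and 9.39, 9.02 and 8.02 in FF liver, and fell at 18 h by 1.09 ± 0.16 on the log2 scale (SE, adjusted p = 0.00106, fold 0.47). Both values at 18 h lay below both at 0 h, and its other probe set fell too, by 0.63 (adjusted p = 0.0142). Fasn, Acaca and Me1 passed in all 18 alternatives run for them at 18 h.

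The sterol genes that fell at 18 h were Fdps, Cyp51, Fdft1 and Sc5d. Fdps read 6.37, 5.93 and 5.71 in FFPE liver and 7.77, 6.73 and 6.45 in FF liver, and fell by 0.99 ± 0.18 (SE, adjusted p = 0.00298). Its values at 18 h and 0 h overlapped across preservations, and each preservation had only 1 array per time. Fdps was past the threshold in 17 of 18 alternatives, and missed it without the FF liver array at 0 h (-0.68, adjusted p = 0.0508, the highest of a range from 0.00217). Cyp51 read 7.00, 6.96 and 6.53 in FFPE liver and 6.85, 6.83 and 5.98 in FF liver, so that the 3 h values were close to those at 0 h, and it fell by 0.67 at 18 h (adjusted p = 0.0194). The other tested probe set of Cyp51 differed by 0.31 (adjusted p = 0.271), the opposite direction. Fdft1 fell by 0.60 (adjusted p = 0.0262), with -0.94 in FFPE and -0.27 in FF, and Sc5d fell by 0.53 (adjusted p = 0.0397).

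The 2 Insig genes moved in opposite directions at 18 h. Insig1, itself an SREBP target, read 9.43, 9.47 and 9.79 in FFPE liver and 9.63, 9.69 and 10.23 in FF liver, and rose by 0.48 ± 0.15 (SE, adjusted p = 0.0453). Insig2, which in liver has a transcript that falls with insulin, read 9.43, 9.45 and 8.38 in FFPE liver and 9.50, 9.57 and 9.12 in FF liver, and fell by 0.71 ± 0.18 (adjusted p = 0.0181). For both, the 3 h values lay close to those at 0 h. A second Insig2 probe set fell by 0.80 (adjusted p = 0.00563), and another differed by -0.35 (adjusted p = 0.24).

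These smaller changes were near the threshold. Fdft1 and Insig2 passed in 14 of 18 alternatives, Cyp51 in 13, Sc5d in 6 and Insig1 in 5. Without the FFPE liver array at 0 h, Fdft1 stood at -0.37, Insig2 at -0.54 and Cyp51 at -0.77, and without that at 18 h, Fdft1 stood at -0.34 and Insig2 at -0.39. Cyp51 stood at -0.57 without the FF liver array at 0 h and at -0.47 without that at 18 h. None of these 7 values passed. Over the arrays left out, Sc5d ran from -0.69 to -0.36 and Insig1 from 0.36 to 0.59, and most of these fits lost the call. Quantile normalisation gave 4 higher and 2 lower members at 18 h, with Elovl5 added (0.51) and Fdft1, Cyp51, Sc5d and Insig2 lost at -0.44, -0.53, -0.32 and -0.46. Equal array medians left Insig1 at 0.45 (adjusted p = 0.0656, in a range of 0.016 to 0.235 over its alternatives). With quantile normalisation 36.4% of all calls at 18 h were higher, against 24.9% as deposited.

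Between the 2 storage conditions, 18 h against 3 h, 1 member was higher and 3 lower, where 10.3% of all genes tested passed, 2.76% as higher and 7.58% as lower. Scd1 was the higher one, and Insig2 (-0.76, adjusted p = 0.0193), Me1 (-0.69, adjusted p = 0.0184) and Cyp51 (-0.64, adjusted p = 0.0321) the lower ones. Of 18 alternatives, Scd1 passed in 15, Insig2 and Me1 in 13 and Cyp51 in 10. Quantile normalisation turned this split to 4 higher (Scd1, Insig1, Fasn and Elovl5) and 0 lower, with 38.3% of all calls higher, against 26.7% as deposited.

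The remaining members did not pass in liver at either time. Scd1 differed by -0.28 at 18 h from 0 h (adjusted p = 0.391), by -0.71 without the FF liver array at 0 h, which passed (adjusted p = 0.0299), and by 0.14 without the FFPE one (adjusted p = 0.722). Thrsp differed by -0.07 at 18 h on its main probe set, and its other probe set fell by 0.52 (adjusted p = 0.02). The main probe set of Elovl6 differed by 0.30 at 18 h, and a second one rose by 0.61 (adjusted p = 0.026).

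**Figure D3:**
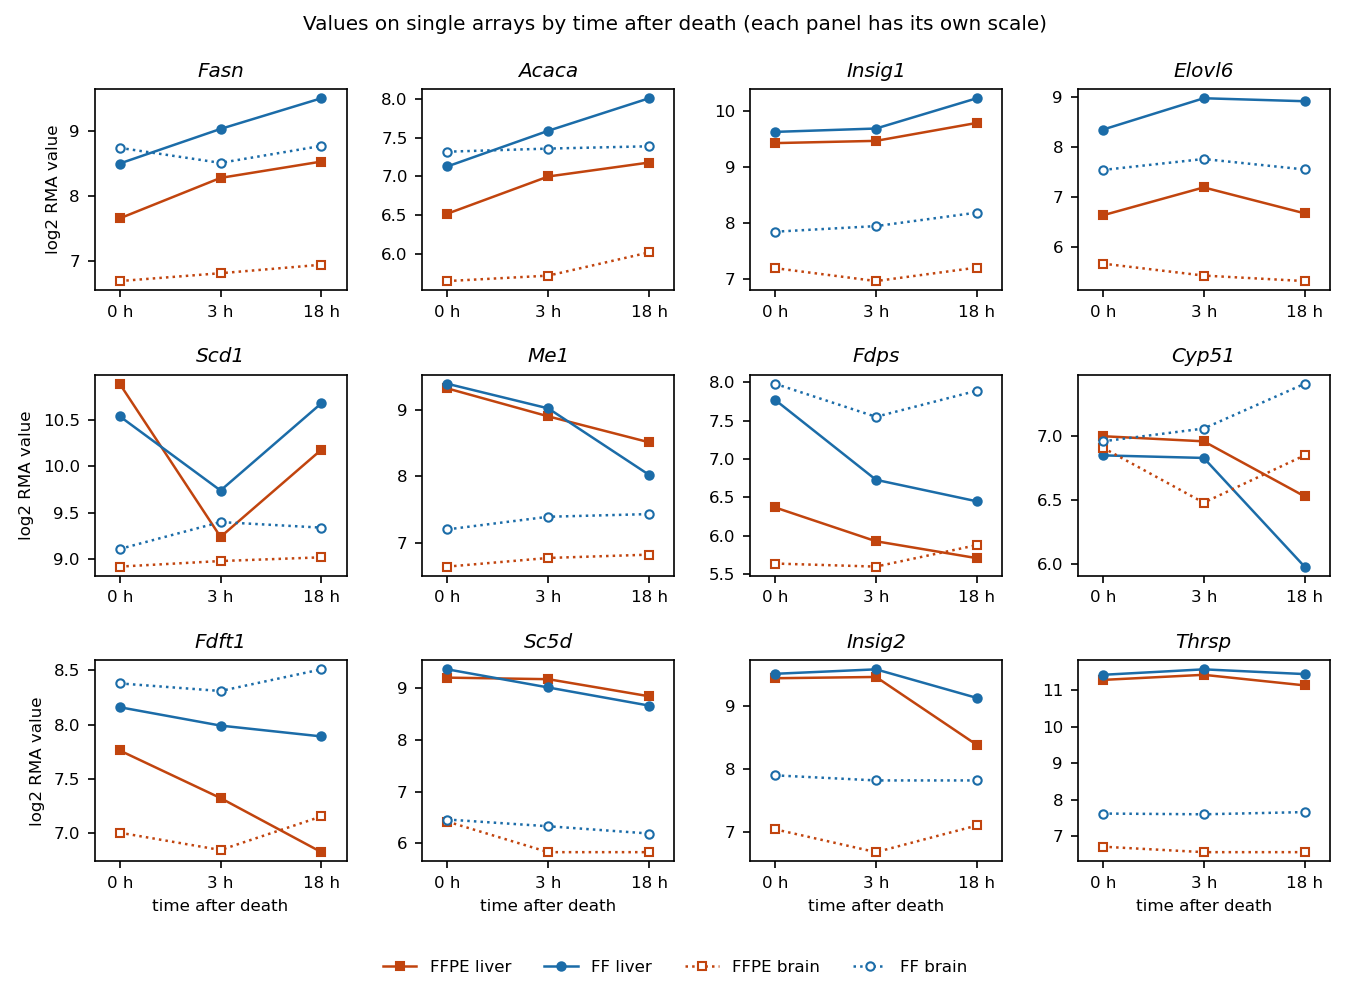
Log2 values on single arrays (y axis, a scale of its own in each panel) at 0, 3 and 18 h after death (x axis, not to scale) for 12 genes, in liver (solid lines, filled) and brain (dotted lines, open), FFPE in orange squares and FF in blue circles. In liver Fasn and Acaca stand in the order of the times, Scd1 is lowest at 3 h, and Me1 and Fdps stand in the reverse order.

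The fourth comparison followed brain after death. Among 26 members 0 passed limma's test at 3 h, where 0.0765% of all genes tested passed, and 0 at 18 h, where 0.0306% passed. One member had an unadjusted p under 0.05 at each time, Sc5d, with -0.36 at 3 h and -0.43 at 18 h. The largest absolute difference was 0.39 at 3 h (Fads2) and 0.43 at 18 h (Sc5d), and the members' medians were -0.06 and 0.02. Fasn read 6.70, 6.82 and 6.95 in FFPE brain and 8.74, 8.51 and 8.77 in FF brain, and Me1 6.64, 6.77 and 6.82 in FFPE brain and 7.20, 7.39 and 7.43 in FF brain. The 95% interval of the 18 h difference ran from -0.17 to 0.45 for Fasn in brain. It is no test against liver, which also has an error and is compared directly below.

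Liver and brain were compared directly in how far members moved. At 3 h 0 of 26 members differed between tissues in their change, where 0.0153% of all genes tested passed, and 4 members had an unadjusted p under 0.05. Scd1 stood at -1.40 (adjusted p = 0.172), and passed without the FF liver array at 0 h (-1.82, adjusted p = 0.0177), alone among the arrays left out. At 18 h 1 member changed more upward in liver and 2 more downward, where 4.48% of all genes tested passed, 0.52% upward and 3.96% downward. Fasn differed by 0.80 ± 0.20 (SE, adjusted p = 0.0444), Me1 by -1.29 ± 0.23 (adjusted p = 0.00975) and Fdps by -1.06 ± 0.25 (adjusted p = 0.0311). Of 17 alternatives, Me1 passed in 12, Fdps in 8 and Fasn in 5, and no member passed without the FFPE or the FF brain array at 0 h or at 18 h. Under quantile normalisation 24.5% of all such calls were above 0, against 11.6% as deposited.

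**Figure D4:**
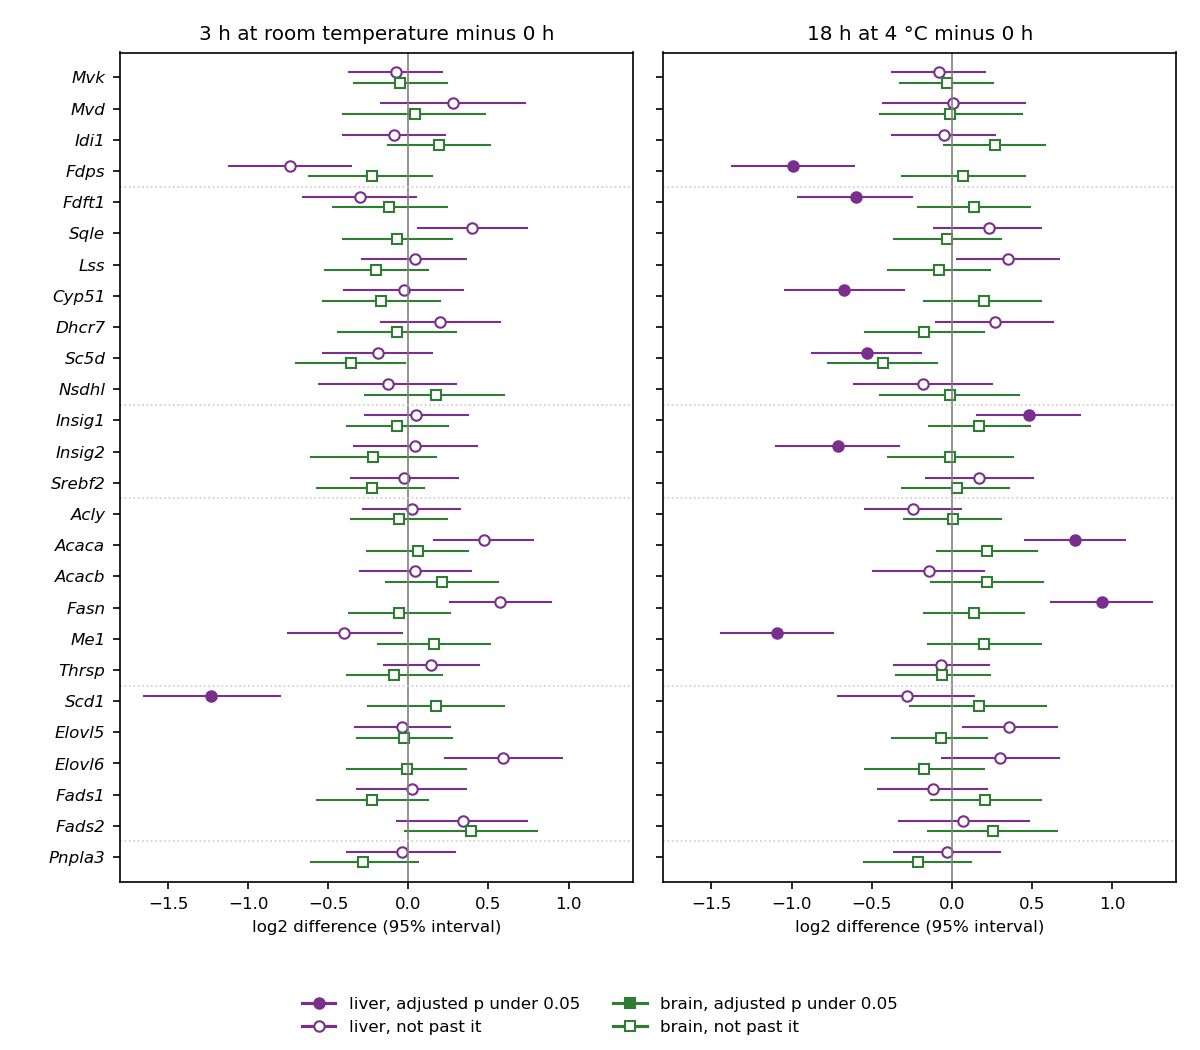
Difference from 0 h on the log2 scale (x axis, with 95% intervals from limma) for 26 genes (rows), after 3 h at room temperature (left) and 18 h at 4 °C (right), in liver (purple circles) and brain (green squares), filled where the adjusted p was under 0.05. The single filled point at 3 h is Scd1 in liver at -1.23, and the 9 filled points at 18 h are all in liver, from -1.09 for Me1 to 0.94 for Fasn.

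Other genes of the same pathways, taken from lists that hold no member, were described by counts. Among all genes tested 3.61% were called higher and 10.9% lower in liver at 18 h. Of 24 other genes of sterol synthesis and its control 14 were tested, and in liver at 18 h 0 rose and 4 fell, Msmo1 (-0.96), Tm7sf2 (-0.83), Ebp (-0.69) and Rnf139 (-0.67). Msmo1, Tm7sf2 and Ebp are enzymes between lanosterol and cholesterol, and RNF139 is a ubiquitin ligase of the endoplasmic reticulum. Of 32 other fatty acid and glyceride genes 26 were tested, and 0 rose and 5 fell, among them the elongation enzymes Elovl3 (-1.35), Hsd17b12 (-1.16) and Tecr (-0.60), and the mitochondrial Mecr (-1.16). In liver at 3 h limma called 0 genes of either list, with 1 of 14 and 4 of 26 at an unadjusted p under 0.05. In brain it called 0 of either list at 3 h, with 1 and 3 at an unadjusted p under 0.05, and 0 at 18 h, with 0 and 0. Their median at 18 h in liver was -0.11 and -0.15, against -0.02 for all genes. In liver against brain, where 34.5% of all genes were called higher and 29% lower in FFPE, and 36.5% higher and 37.5% lower in FF, 11 of the 14 sterol genes were higher and 1 lower in FFPE, and 8 higher and 3 lower in FF. Of the 26 fatty acid and glyceride genes 21 were higher and 3 lower in FFPE, and 20 higher and 5 lower in FF.

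Other measures moved with time in the same liver arrays. For Gapdh, the 3' control probe set minus the 5' one, on the log2 scale, was 1.04, 1.63 and 1.77 in FFPE liver and 0.03, 0.82 and 1.14 in FF liver at 0, 3 and 18 h, while in brain it was 1.22, 1.25 and 1.22 in FFPE and -0.02, 0.00 and 0.05 in FF. The same value for Actb was -0.12, -0.01 and -0.18 in FFPE liver and 1.09, 2.00 and 1.90 in FF liver. Of 9 Kupffer cell markers tested, 7 fell at 3 h (median of all 9 -1.20) and 3 at 18 h. Of 9 sinusoidal endothelial markers 4 rose at 18 h, and their summed level was 10.15, 9.60 and 10.44 in FFPE liver and 10.84, 10.37 and 11.47 in FF liver. Of 3 adipocyte markers tested 1 rose at 18 h, and the summed level of 5 on the array was 7.50, 7.55 and 7.66 in FFPE liver and 7.62, 7.71 and 8.48 in FF liver. Of 16 hepatocyte markers tested, limma called 0 in liver at either time, with 0 at an unadjusted p under 0.05. The part of RNA quality and of these cell types in the changes of all 10 members called in liver at 3 h or 18 h, those that fell included, was not tested. In brain, 13 of the 16 hepatocyte markers stood below 0 at 3 h, with a median of -0.86. Limma called 1 of the 16 higher and 1 lower, with 13 at an unadjusted p under 0.05. The summed level of the 17 on the array at 0, 3 and 18 h was 9.87, 12.69 and 12.25 in FFPE brain. In FF brain it was 11.46, 12.94 and 12.46. In this sum the brightest markers weigh most, so its rise does not stand for most of the list, and which markers raised it was not tested. At 3 h 13 of 13 oligodendrocyte markers stood above 0 in brain with 0 called by limma, 8 of them at an unadjusted p under 0.05, and the part of these markers in the brain values was not tested either.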

How the data were processed

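Expression was measured on 12 arrays, 1 per condition. The deposited values are log2 RMA values, and per the submitters' processing notes they were made in Affymetrix Expression Console. Versions, and whether all arrays were normalised in 1 run, are not given in the sources used here. The 45141 probe sets comprise 104 controls, 28898 that name a single gene, 551 that name several and 15588 that name none. Gene symbols came from the platform annotation, and 28689 single-gene probe sets were matched to RefSeq by gene ID.

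From these values, each gene was represented by its probe set of highest mean, and the 13073 of 17097 genes that reached the median of the array on 3 or more arrays were tested. A model with 8 coefficients, 1 mean for each of the 4 tissue and preservation series plus each tissue's change at 3 h and at 18 h, was fitted to all 12 arrays with limma 3.58.1 in R 4.3.3 (lmFit, eBayes, two-sided, 4 residual degrees of freedom). All arrays share 1 estimate of the spread per gene, which eBayes draws toward the spread of all genes tested. P-values were adjusted by Benjamini-Hochberg over all genes tested, with a threshold of 0.05. Arrays carry no read depth, and their number limits the precision.

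The members, the other gene lists and the markers were chosen with earlier results of these data known. All members may be named, and of other pathway genes at most the 4 largest changes past the threshold in a comparison. The alternatives were the mean of a gene's probe sets, quantile normalisation, equal array medians, no filter, a robust spread, arrays of 1 tissue or preservation, and leaving out each array. The fits of all single probe sets were added after the data were seen. Motifs were searched in Python 3.11.15.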

Additional observations from a re-analysis of the deposited data

Results flagged for a closer look

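In 17 of 26 members the FFPE minus FF difference in liver departed from that in brain by the fit's own test of that difference, which 54.9% of all genes tested passed. The values, liver minus brain on the log2 scale, were 0.88 for Mvd, 1.30 for Idi1, 1.12 for Fdps, 0.69 for Fdft1, 1.18 for Sqle, 1.34 for Lss, 0.67 for Cyp51, 0.58 for Insig1 and 0.59 for Insig2 in the sterol branch. In the fatty acid branch they were 1.05 for Acly, 0.88 for Acaca, -0.94 for Acacb, 1.00 for Fasn, 0.65 for Elovl5, 1.29 for Fads2, 0.70 for Me1 and 0.82 for Thrsp. The probe sets of Insig2 and Thrsp disagreed on the direction of this difference.

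In 3 of 26 members the change at 18 h in liver departed from that in brain, where 4.48% of all genes tested passed. The values were -1.06 for Fdps, 0.80 for Fasn and -1.29 for Me1.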

How the results depend on the processing

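Arrays could not be paired by animal, because the labels do not say which arrays share one. The fit compared times within each tissue and preservation series, and preservations at matched times. Leaving out each array in turn, the number of members called ran from 18 to 22 for liver against brain in FFPE, 19 to 23 in FF, 12 to 16 for FFPE against FF in liver, 19 to 23 in brain and 16 to 17 for the difference of these. It ran from 0 to 1 for liver at 3 h, 4 to 8 at 18 h, 0 to 4 for 18 h against 3 h, 0 to 1 for the tissue difference in the 3 h change and 0 to 4 in the 18 h change. Brain stayed at 0. The lowest count at 18 h in liver, 4, came without the FFPE array at 0 h. For 18 h against 3 h, 0 passed without the FFPE liver array at 3 h, 1 without the FF one, and 2 without the FF liver array at 18 h. For the 18 h change, 1 passed without either brain array at 3 h. With arrays of liver alone, 0 members passed at 3 h, 5 at 18 h and 0 for 18 h against 3 h, with fewer samples in the fit. With no filter 0 passed at 3 h, with more genes tested. Quantile normalisation left 11 members in the difference of preservation between tissues.

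Among values past the threshold as reported or under the alternative, directions turned only in comparisons of preservation. Values past it in neither changed sign in 207 cases, in all 12 comparisons. With the mean of a gene's probe sets, FFPE minus FF in liver was -0.45 for Sc5d, 0.29 for Acly, 0.69 for Acaca, 1.69 for Scd1, 0.68 for Fads2 and -0.73 for Me1, and in brain -0.29 for Mvd, 0.89 for Scd1 and 0.09 for Fads2. In brain, quantile normalisation gave 0.44 for Cyp51, 0.23 for Sc5d, 0.04 for Insig1, 0.41 for Srebf2, 0.43 for Scd1, 0.21 for Elovl5 and 0.25 for Me1. In the difference between tissues, the mean of probe sets gave -0.03 for Cyp51, and quantile normalisation -0.13 for Insig1, -0.00 for Insig2, -0.06 for Elovl5 and -0.02 for Thrsp. For the mean of probe sets, the disagreement of probe sets is shown above, and for quantile normalisation the cause was not tested. Quantile normalisation moved the median of all genes for liver against brain in FF to 0.16. Signal near the array background, as for Hmgcs1, limits what can be read.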
